A study of Tupaia belangeri with 8 samples.

Results

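The rare predicted miRNAs of tree shrew primary neurons are the subject here. They were chosen by read count: every row of the deposited table whose name starts with novel_ and whose counts sum to under 80 over all 8 small RNA libraries. The rule selected 148 of the 225 predicted miRNAs and of the 384 miRNAs in the table. Together they held 2163 of 17393878 reads, or 0.0124%. Their low summed count is therefore given by the choice and is not a result. How those reads spread over the libraries was not named in the rule. A cap on the sum still weighs most on counts in the deepest libraries, so the spread is not wholly free of the choice.

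Cells came from the brain of neonatal tree shrews (Tupaia belangeri), a small mammal close to primates, and are labelled primary neurons. METH wells received 5 µl of methamphetamine, a psychostimulant that releases dopamine, from a stock given as 100 mmol, in 995 µl of complete medium, and control wells, labelled PBS, received 1 ml of that medium after a rinse with PBS. All cells were collected after 24 h and grew in Neurobasal-A with 15% fetal bovine serum and B-27. There were 4 METH and 4 PBS libraries, and the labels do not say whether they came from separate animals or cultures, so each p-value reflects only how these libraries vary, and that variation may be technical.

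A miRNA is a short RNA cut from a hairpin precursor by Drosha and Dicer and loaded into Argonaute, where its seed pairs with target mRNAs. A predicted miRNA is one that software proposes from reads that stack on a genomic sequence able to fold into such a hairpin, so a row with few reads rests on few molecules. Small RNA reads are drawn from a fixed pool, so a miRNA of low abundance enters a library only when enough reads are taken, and a very abundant miRNA leaves fewer reads for all others. The table names each predicted miRNA by a number alone, and no function is given to any of them here.

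Library totals over the listed miRNAs lay between 6702946 and 7334789 reads in the libraries numbered 4 (METH 4 and PBS 4) and between 339243 and 778888 in the 6 numbered 1 to 3, a 21.6-fold range in all. METH 3, PBS 1 and PBS 3 stood apart from the other 5 libraries: the most abundant miRNA of the table, miR-21-5p, held 5.26%, 7.53% and 6.95% of their reads, against 33.5% to 49.3% in the others. The neuronal miR-9-5p and miR-128 together made up 16016 to 85174 TPM (the deposited scale, each count divided by its library's listed reads) in these 3 and 17021 to 47266 TPM in the other 5, while the neuronal miR-124 matched no row. The 4 epithelial miRNAs listed (miR-141 and the miR-200 family) summed to 513, 549 and 46.3 TPM in METH 3, PBS 1 and PBS 3, against 4.41 to 23.1 TPM in the other 5. Smooth muscle and fibroblast miRNAs (miR-143-3p and miR-199b-3p, with no row for miR-145) summed to 13563 to 34658 TPM in these 3 and 33735 to 60916 TPM in the other 5. Blood-lineage miRNAs (miR-142 and miR-486-3p, with no row for miR-223 or miR-451) summed to 28.3 to 61.9 and 2.57 to 63.8 TPM, and the oligodendrocyte miR-219-5p was at 0 in all libraries except METH 4 and PBS 4.

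The rare predicted miRNAs were detected mostly in the deepest libraries. At least 1 read of 107 of the 148 was found in METH 4 and of 119 in PBS 4. METH 1, METH 2 and METH 3 held 40, 41 and 49 of them, and PBS 1, PBS 2 and PBS 3 held 51, 42 and 55. The libraries numbered 4 did not overlap the other 6, while the METH and PBS libraries numbered 1 to 3 overlapped each other. In reads, METH 1 to METH 4 held 71, 63, 145 and 720, and PBS 1 to PBS 4 held 160, 96, 145 and 763. METH 3, the shallowest library, thus held more reads of these miRNAs than METH 1 and METH 2, and as many as PBS 3.

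**Figure D1:**
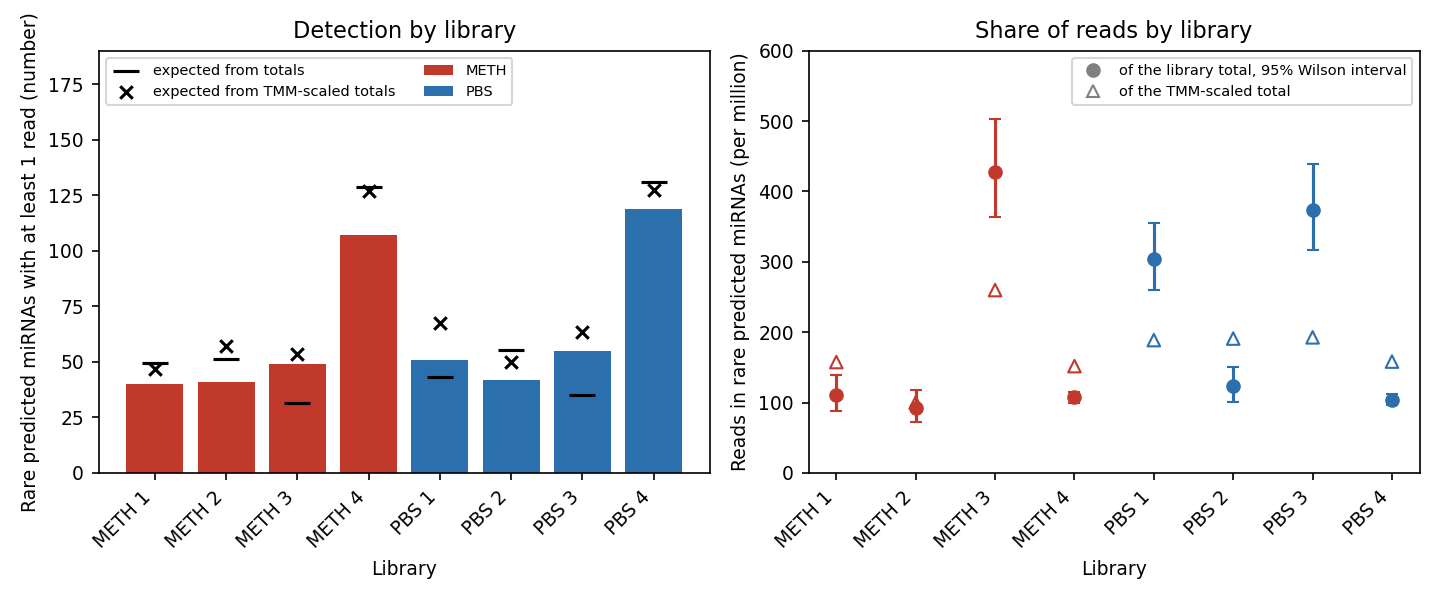
Left, number of the 148 rare predicted miRNAs with at least 1 read in each library (bars), with the number expected from the library totals (dashes) and from TMM-scaled totals (crosses). Right, their summed TPM with 95% Wilson intervals (circles) and the same on the TMM-scaled total (triangles); METH 3, PBS 1 and PBS 3 lie at 304 to 427 TPM and the other 5 at 92.6 to 123.

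How much of this follows from depth was computed from the totals: if every miRNA held the same share of reads in all 8 libraries, its reads would fall in each library in proportion to that library's total. METH 4 and PBS 4 took 80.7% of all listed reads but 68.6% of the reads of the rare predicted miRNAs (1483 of 2163). Totals alone would place 129 of the 148 in METH 4 and 131 in PBS 4, above the 107 and 119 found. They would place 49.3, 51.1 and 55.4 in METH 1, METH 2 and PBS 2, above the 40, 41 and 42 found. In METH 3, PBS 1 and PBS 3 they would place 31.6, 43.2 and 35.0, below the 49, 51 and 55 found. By totals the libraries numbered 4 were thus expected to lead the rest, as found, though both held fewer of these miRNAs than expected. The order found among the 6 shallow libraries was not the expected one. By totals, the 3 shallow libraries that stand apart were above the expectation and the other 3 below it.

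On the TPM scale the division between METH 3, PBS 1 and PBS 3 and the other 5 libraries was wider than the intervals for counting error. The rare predicted miRNAs summed to 427 TPM in METH 3 (95% Wilson interval 363 to 503), 304 in PBS 1 (261 to 355) and 373 in PBS 3 (317 to 439). They summed to 110, 92.6, 107, 123 and 104 TPM in METH 1, METH 2, METH 4, PBS 2 and PBS 4, and the highest upper bound among these 5 was 150. METH 4 and PBS 4, the deepest, lay inside the range of the 3 shallow libraries among these 5. METH libraries averaged 184 ± 162 TPM and PBS libraries 226 ± 133 TPM (SD, n = 4 each), so the groups overlapped widely. The intervals cover counting error only and take each read as a separate draw. The protocols mention no molecular identifiers, so PCR copies cannot be told from separate molecules, and the intervals may be too narrow.

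The share taken by other miRNAs moved with this division. With miR-21-5p left out of the totals, the sums were 451, 329 and 401 TPM in METH 3, PBS 1 and PBS 3, against 149 to 206 in the other 5. TMM, a scaling that lines up the bulk of miRNAs between libraries, gave METH 3, PBS 1 and PBS 3 factors of 1.64, 1.61 and 1.94 and the other 5 factors of 0.645 to 0.925. On TMM-scaled totals the sums were 260, 189 and 193 in METH 3, PBS 1 and PBS 3, against 100.1 to 191 in the other 5, which overlap. METH 4 and PBS 4 held 71.9% of the TMM-scaled total, nearer to the 68.6% of reads found there. TMM-scaled totals would place 53.3, 67.5 and 63.4 rare predicted miRNAs in METH 3, PBS 1 and PBS 3, above the 49, 51 and 55 found. They would also place more than were found in each of the other 5, from 46.6 in METH 1 to 127 in PBS 4. The part of the epithelial miRNAs in these values was not tested.

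Detection was then compared at 1 depth, by computing how many of the 148 would be found if each library were cut to the 339243 reads of the shallowest by random draws without replacement. METH 4 and PBS 4 would show 25.4 and 28.2 of them, close to the 25.7, 24.7 and 26.6 of METH 1, METH 2 and PBS 2. METH 3 showed 49, and PBS 1 and PBS 3 would show 42.0 and 51.2. With totals set equal, METH 4 and PBS 4 thus no longer led, and METH 3, PBS 1 and PBS 3 were the 3 with the most rare predicted miRNAs. With miR-21-5p left out of the totals the same 3 gave 49, 42.5 and 51.7, against 32.9 to 44.8 in the other 5, where PBS 4 with 44.8 passed PBS 1. On TMM-scaled totals METH 1 is the shallowest library, so each library keeps another share of its reads. On that scale the division was gone, with 44.1, 38.0 and 41.2 in METH 3, PBS 1 and PBS 3 and 32.5 to 47.2 in the other 5. There PBS 4 was the highest of all 8 with 47.2, while METH 4 had 38.7.

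**Figure D2:**
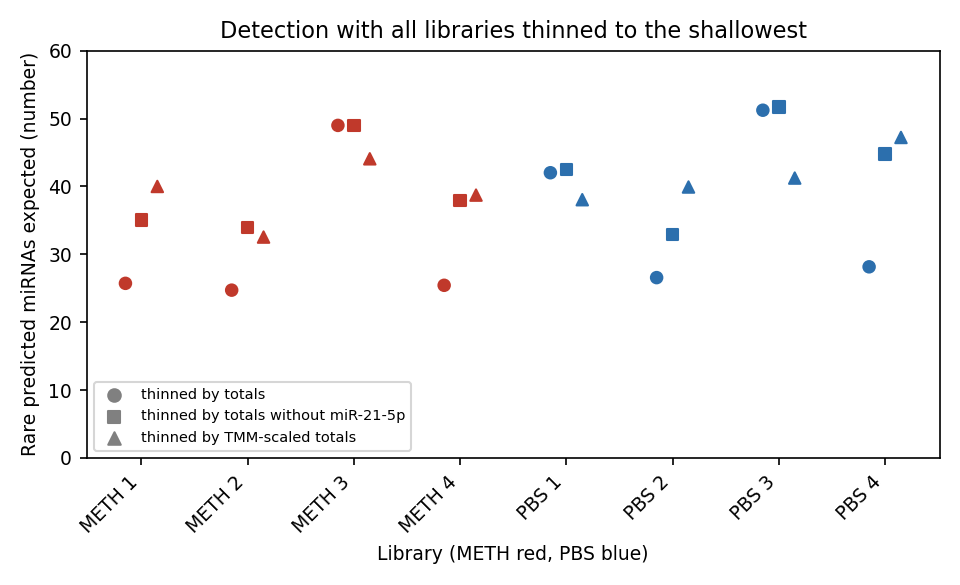
Number of the 148 rare predicted miRNAs expected in each library when all are thinned to the shallowest, by totals (circles), totals without miR-21-5p (squares) and TMM-scaled totals (triangles). By totals, METH 3, PBS 1 and PBS 3 lie at 42.0 to 51.2 and the other 5 at 24.7 to 28.2; by TMM-scaled totals all 8 lie between 32.5 and 47.2.

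Detection rose with the summed count, from which it is not independent. The 15 miRNAs with a single read in the whole table had it in METH 4 in 7 cases, in PBS 4 in 5 and in PBS 3 in 3, so 80% lay in the libraries numbered 4, which hold 80.7% of all reads. Of the 34 with 2 to 4 reads, 59.8% of reads lay there, of the 35 with 5 to 9 reads 74.9%, and of the 33 with 10 to 19 reads 72.2%. The 16 with 20 to 39 reads had 66.5% there, and the 15 with 40 to 79 reads 66.7%. The median number of libraries with a read was 1, 2, 3, 4, 6 and 7 in these classes from low to high. No library held more than 1 read of 25 of the 148 miRNAs.

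**Figure D3:**
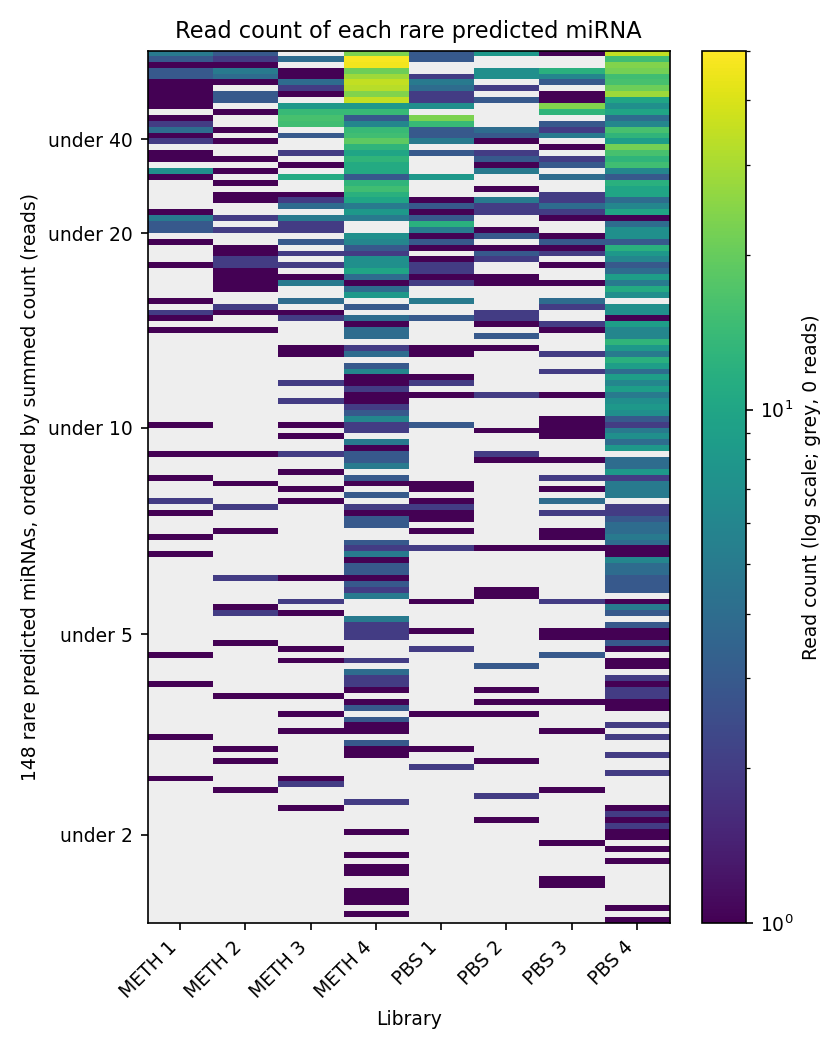
Read count (colour, log scale) of each of the 148 rare predicted miRNAs (1 line each, ordered by summed count from the top) in the 4 METH and 4 PBS libraries, with 0 reads in grey. METH 4 and PBS 4 are filled for 107 and 119 of them, and the 6 other libraries for 40 to 55.

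METH 4 and PBS 4 shared 91 miRNAs, which were 85.0% of those in METH 4 and 76.5% of those in PBS 4. A further 16 were in METH 4 and not PBS 4, and 28 were in PBS 4 and not METH 4. Reads were confined to these 2 libraries for 43 of the 148, where totals give 40.04 and TMM-scaled totals 27.9. Of the 43, 21 were in both, 12 in METH 4 alone and 10 in PBS 4 alone. Their highest level in any library was 1.77 TPM, while a library with 0 reads still permits 3.85 TPM in PBS 2, the deepest of the other 6, and 8.84 TPM in METH 3, the shallowest (3 counts of the total). Such levels could be missed in any single shallow library. Over the 6 shallow libraries pooled, 0 reads permit 0.894 TPM, and the pooled levels in METH 4 and PBS 4 of novel_564 (1.07 TPM) and novel_618 (0.926 TPM) lay above that. Counting error in the reads of these rows is not allowed for there.

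The 43 were spread unevenly over the count classes. Among miRNAs with 10 to 19 reads, 7 had no read in the 6 shallow libraries, where totals give 2.08 and TMM-scaled totals 0.525. Among those with 2 to 4 reads it was the reverse, with 12 found, 18.2 from totals and 13.2 from TMM-scaled totals. novel_564 was the most abundant of the 43, with 8 reads in METH 4, 7 in PBS 4 and 0 in each of the other 6. All 13 reads of novel_618 and all 12 of novel_454 were in PBS 4, and METH 4, of nearly the same depth, had none of either. novel_576, novel_488 and novel_276 had 3, 2 and 2 reads in METH 4 and 9, 9 and 8 in PBS 4. novel_550 had its 5 reads in METH 4 only, and was with novel_618 and novel_454 the only miRNA of 5 or more reads found in a single library.

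The reverse pattern, reads in shallow libraries and none in METH 4 or PBS 4, was found for 13 miRNAs, where totals give 3.45 and TMM-scaled totals 5.51. They held 44 reads in all, and 9 of the 13 had 1 or 2 reads. By library, METH 1, METH 2 and METH 3 held 5, 2 and 9 of these reads, and PBS 1, PBS 2 and PBS 3 held 9, 4 and 15. A single read in a shallow library stands for 1.28 TPM or more, while 0 reads permit at most 0.448 TPM in METH 4 and 0.409 TPM in PBS 4. A level read from 1 or 2 reads is itself loosely set.

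novel_218 had the most reads of the 13, with 1 in METH 1, 4 in METH 3, 5 in PBS 1 and 4 in PBS 3, and 0 in the other 4 libraries. Pooled over libraries it was at 0 in METH 4 and PBS 4 and at 4.17 TPM in the 6 others. The latter is 19.5 times the floor of 3 counts over both deep libraries. novel_628 had 2 reads in METH 1, 1 in METH 3, 1 in PBS 1 and 4 in PBS 3. Its pooled level in the shallow libraries was 11.2 times the same floor. Neither ratio allows for counting error in the shallow reads. novel_283, named here after its values were seen, had 1 read each in METH 3, PBS 1 and PBS 2. These are the only 3 of the 13 found in 3 or more shallow libraries.

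Recurrence in the shallow libraries, taken as at least 1 read in at least 3 of the 6, was found for 51 of the 148. Totals give 42.8 and TMM-scaled totals 58.5, so the number lay between the expectations from the 2 scalings. By number of shallow libraries from 0 to 6, there were 43, 30, 24, 18, 20, 12 and 1 miRNAs, where totals give 40.04, 38.8, 26.3, 16.8, 11.5, 9.17 and 5.30. The widest excess over totals lay at 4 libraries (20 against 11.5), and the widest deficits at 1 (30 against 38.8) and at all 6 (1 against 5.30). TMM-scaled totals give 11.7 at all 6. Taking 2 reads as detection left 23 of the 51, and without METH 3, PBS 1 and PBS 3 only 11 were in each of the 3 shallow libraries that remain.

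**Figure D4:**
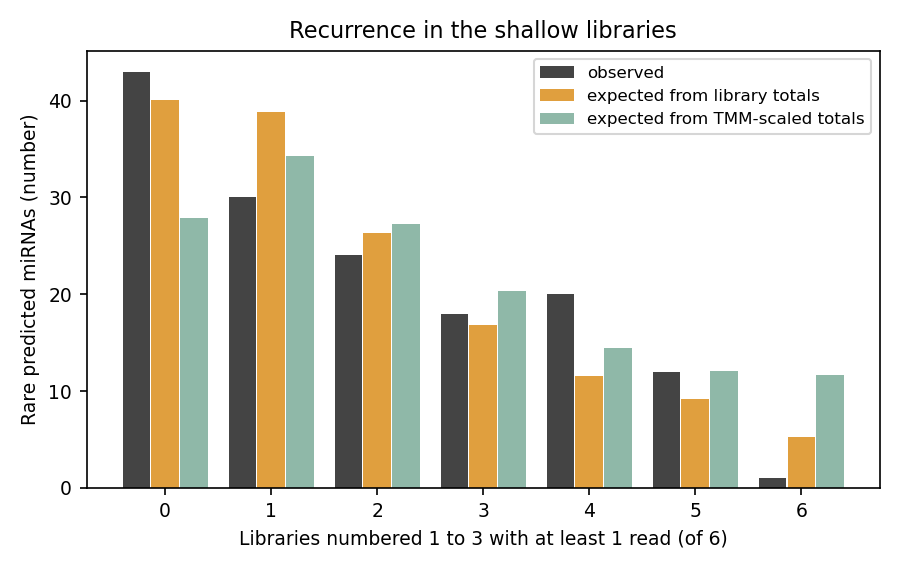
Number of rare predicted miRNAs (vertical axis) by how many of the 6 libraries numbered 1 to 3 hold at least 1 read of them (horizontal axis): observed (dark), expected from library totals (orange) and from TMM-scaled totals (green). Observed numbers exceed both expectations at 0 and at 4 libraries and fall below both at 1, 2 and 6.

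The 51 recurring miRNAs had a median summed count of 21, against 5 for the other 97. Recurrence is not independent of the summed count, since a miRNA with more reads is more readily found in several libraries. They held 579 of the 680 reads that the 148 had in the shallow libraries, or 85.1%, and 48 of the 51 also had a read in METH 4 or PBS 4. By library they were present 32, 26 and 36 times in METH 1, METH 2 and METH 3 and 41, 29 and 36 times in PBS 1, PBS 2 and PBS 3. The reads in METH 3, PBS 1 and PBS 3 outnumbered those in METH 1, METH 2 and PBS 2 for 32 of the 51. The reverse held for 13. Over all 148 the former held for 56 and the reverse for 32, with equal reads for 60. METH 3, PBS 1 and PBS 3 had 1253693 listed reads in total, against 2102450 in METH 1, METH 2 and PBS 2. Only 8 of the 51 had under 10 reads in all, and 7 of the 51 had never more than 1 read in a shallow library.

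novel_383 was the only rare predicted miRNA found in all 8 libraries, where totals give 5.30 such miRNAs. Its counts were 3, 4, 1 and 28 in METH 1 to METH 4 and 2, 7, 6 and 15 in PBS 1 to PBS 4. It was thus present at a low count everywhere, with 65.2% of its 66 reads in the deep libraries. A further 12 were found in 5 of the 6 shallow libraries. Of these novel_208, with 78 reads the closest to the threshold, had 5, 3, 0 and 23 reads in METH 1 to METH 4 and 3, 8, 1 and 35 in PBS 1 to PBS 4. Its 74.4% in the deep libraries lay between the 71.9% and 80.7% that the scalings give.

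novel_205 had counts of 4, 1, 0 and 14 in METH 1 to METH 4 and 3, 4, 2 and 16 in PBS 1 to PBS 4. novel_162 had 1, 3, 0 and 35 in the METH and 2, 3, 1 and 10 in the PBS libraries, and novel_656 had 1, 1, 4 and 35 in the METH and 5, 0, 3 and 16 in the PBS libraries. In these 3 the deep libraries led and the shallow ones differed by a few reads. novel_332 had 1, 0, 3 and 15 reads in the METH libraries and 3, 3, 5 and 13 in the PBS libraries, and novel_262 had 0, 1, 2 and 10 and 1, 5, 2 and 4. Another pair of this class (novel_397 and novel_439, named after their values were seen) had 60 and 18 reads in all.

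In 3 of the miRNAs found in 5 shallow libraries, the pooled TPM was lower in METH 4 and PBS 4 than in the shallow libraries, by intervals that stay under 0.5 times. novel_226 had 5, 2, 5 and 5 reads in METH 1 to METH 4 and 3, 0, 1 and 1 in PBS 1 to PBS 4. Only 27.3% of its 22 reads lay in METH 4 and PBS 4, and its pooled TPM there was 0.0897 times that in the 6 shallow libraries (exact 95% interval for counting error 0.0287 to 0.241). novel_485 had 3, 2, 2 and 0 reads in METH 1 to METH 4 and 5, 1, 0 and 7 in PBS 1 to PBS 4, a ratio of 0.129 (0.0435 to 0.347). novel_242, named after its values were seen, had 0, 1, 5 and 1 and 2, 1, 1 and 5 reads, a ratio of 0.143 (0.0428 to 0.436). All 3 were grouped here by these intervals, which leave out the spread between libraries, and each rests on few reads. Recurrence in 5 shallow libraries at so few reads itself favours a high shallow share. The edgeR test of deep against shallow libraries, given below, called none of them (edgeR adjusted p = 0.347, 0.428 and 0.448 in this order).

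The 6 rows with the largest excess of shallow reads over the totals had their highest TPM in METH 3 or PBS 3, and 5 of them had at most 2 reads in each of METH 1, METH 2 and PBS 2. novel_475 had 1, 0, 16 and 3 reads in METH 1 to METH 4 and 23, 0, 0 and 4 in PBS 1 to PBS 4. These are 47.2 TPM in METH 3 and 43.7 TPM in PBS 1, against at most 1.56 TPM in the other 6 libraries. novel_349 had 2, 0, 15 and 6 reads in the METH libraries and 14, 0, 3 and 6 in the PBS libraries, and novel_622 had 1, 0, 11 and 3 and 8, 0, 4 and 3. All 3 were highest in METH 3, then in PBS 1 on the TPM scale, the libraries with the highest epithelial miRNA sums, whose part in these values was not tested.

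In 3 other rows PBS 3 held many of the reads. novel_565 had 1, 0, 8 and 8 reads in METH 1 to METH 4 and 7, 0, 24 and 7 in PBS 1 to PBS 4, and was highest in PBS 3, at 61.8 TPM. novel_391 had 0, 1, 14 and 14 reads in the METH libraries and 0, 0, 13 and 10 in the PBS libraries, so it was at 41.3 TPM in METH 3 and 33.5 TPM in PBS 3 but at 0 in PBS 1. novel_515 had 3, 5, 1 and 21 and 0, 7, 12 and 22, with its highest level, 30.9 TPM, in PBS 3. The 3 libraries that stand apart were thus not alike in which of these rows they held. Together these 6 rows held 38.4% of the rare predicted reads of METH 3, PBS 1 and PBS 3. Without the 6, chosen here for that excess, those libraries were still at 236, 205 and 229 TPM, against 83.8 to 114 in the other 5.

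**Figure D5:**
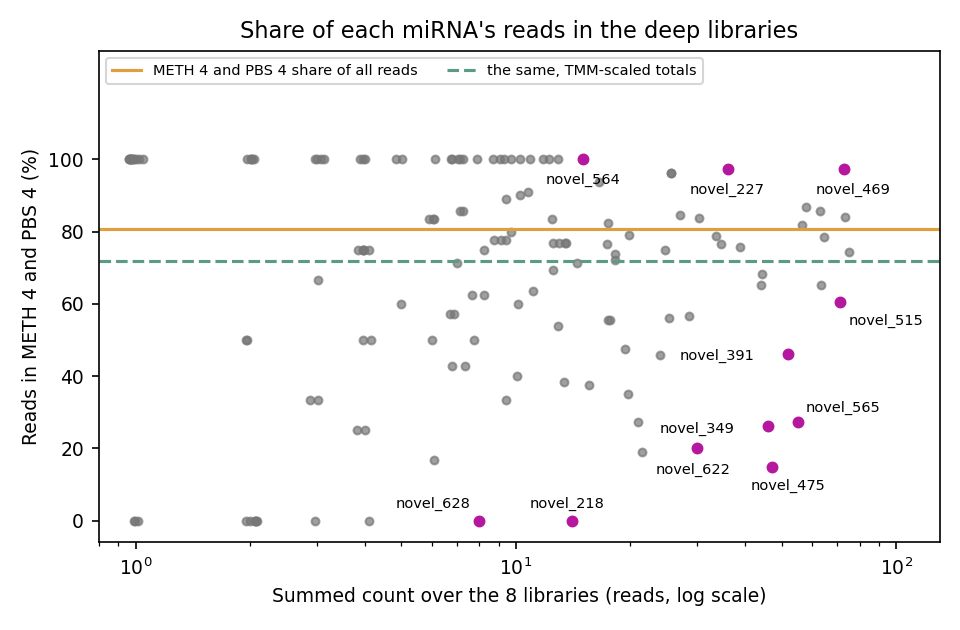
Percent of each rare predicted miRNA's reads that lies in METH 4 and PBS 4 (vertical axis) by its summed count (horizontal log axis; points are moved slightly sideways to part ties). Lines mark the share of those libraries in all reads (80.7%) and in TMM-scaled totals (71.9%). Named points are the rare predicted miRNAs with the largest excess in shallow libraries and those of them with the smallest p between deep and shallow libraries.

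Whether single rows differed in level between the libraries numbered 4 and the 6 numbered 1 to 3 was tested with edgeR's quasi-likelihood test over all 384 rows, with METH or PBS as covariate. No row was called at an adjusted p of 0.05, so 0 of the 148 and 0% of the table. The 148 held 19 rows with an unadjusted p under 0.05, 11 higher and 8 lower in METH 4 and PBS 4, or 12.8%, near the 14.3% of all rows tested. DESeq2 called 0 of the 148, with 8 at an unadjusted p under 0.05, and 11 rows of the table. It gave no adjusted p to novel_218, novel_469, novel_628, novel_227 or novel_564, so it could not call these. Without METH 3, PBS 1 and PBS 3, edgeR called 20 rows of the table and 0 of the 148, with 4 of the 148 at an unadjusted p under 0.05. Without METH 4 or PBS 4 the 19 became 3 and 4, and the 55 such rows of the whole table became 14 and 12. The 19 became 7, 19 and 12 without METH 1, METH 2 or METH 3. They became 9, 16 and 10 without PBS 1, PBS 2 or PBS 3. Whatever else sets METH 4 and PBS 4 apart cannot be told apart from their depth.

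The direction of the whole table in this fit followed the scaling. With TMM the median log2 fold change was 0.39 over the 148 and 0.33 over all rows. DESeq2's size factors gave −0.01 and −0.05, upper quartile scaling −0.20 and −0.25, and total counts −0.23 and −0.31. The median of the 148 thus moved with that of the table under each edgeR scaling, while DESeq2's own fit gave −0.93 over the 148 and −0.35 over all rows.

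Among the 148, 2 of the 5 smallest p in this fit belonged to novel_218 and novel_628. Both were described above with 0 reads in the deep libraries (edgeR adjusted p = 0.201 for each, over alternatives 0.119 to 0.894 and 0.139 to 0.894). Rows of the table outside the 148 had smaller p than any of the 5. novel_469 had 1, 1, 0 and 47 reads in METH 1 to METH 4 and 0, 0, 0 and 24 in PBS 1 to PBS 4. Its pooled level in METH 4 and PBS 4 was 8.49 times that in the shallow libraries (exact 95% interval for counting error 2.26 to 71.4, edgeR adjusted p = 0.201, over alternatives 0.164 to 0.894). novel_227 had 0, 0, 0 and 13 and 0, 0, 1 and 22 reads, a ratio of 8.37 (1.41 to 340, edgeR adjusted p = 0.267, over alternatives 0.196 to 0.894). For novel_564 the pooled level in the deep libraries was 1.195 times the floor of 3 counts over the 6 shallow libraries. That ratio leaves out counting error in its deep reads (edgeR adjusted p = 0.330, over alternatives 0.229 to 0.894). None of these passed the test, while the sign was kept in every alternative that could be fitted. The ranges of adjusted p leave out DESeq2, which gave these rows none.

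Among the 64 rows with 10 or more reads, the percent of reads in METH 4 and PBS 4 had a median of 76.1% and ran from 0% to 100%. It was under 50% for 14 and over 90% for 13. Over all 148 the median was 76.9%, and it was 50% without PBS 4, 61.3% without METH 4 and 93.3% without METH 3, PBS 1 and PBS 3.

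METH and PBS were compared over the same rows, the only contrast of the study's design. Of the 148, 131 had a read in a METH library and 134 in a PBS library, with 999 and 1164 reads, and 14 were in METH libraries only and 17 in PBS libraries only. In the shallow libraries alone 79 and 88 were found. edgeR called 0 of the 148 and 0% of the 384 rows at an adjusted p of 0.05, and DESeq2 also called 0. The median log2 fold change (METH over PBS) was −0.36 over the 148 and 0.01 over all rows, and with total counts −0.51 and −0.20. Without PBS 4 the medians were 0.10 and 0.23, so the sign over the 148 rested on that library, while their median stayed below that of the table.

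At an unadjusted p under 0.05 the 148 held 9 rows, or 6.08%, beside 2.60% of the table, 4 with METH higher and 5 lower. DESeq2 gave 0 of the 148 at that level. In 6 of the 9 all reads lay in 1 library. Without METH 4 the number was 2, without PBS 4 it was 5, and without both it was 0. The smallest p belonged to novel_618, novel_454, novel_550, novel_257 and novel_501 (edgeR adjusted p = 0.999 for each, over alternatives 0.618 to 1.00). The first 3 are described above, and all 4 reads of novel_501 were in METH 4.

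novel_257 was the only one of the 148 whose METH and PBS libraries did not overlap. It had 0, 0, 0 and 1 reads in METH 1 to METH 4 and 1, 2, 1 and 5 in PBS 1 to PBS 4, or 0 to 0.149 TPM in METH and 0.682 to 2.57 TPM in PBS. In METH 2, the deepest METH library at 0, up to 4.41 TPM is possible, so the levels of the shallow PBS libraries could be missed in any single one of them. Of all 384 rows 0.521% lay wholly lower in METH and 0% wholly higher, and 1 of the 148 is near that share.

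Rare miRNAs with a known name were fewer under the same threshold, 26 beside 133 at or over it, with a median summed count of 21.5 against 8 for the rare predicted ones. Of the 26, 25 were in METH 4 and 25 in PBS 4, 9 to 16 in each of the METH libraries numbered 1 to 3 and 9 to 13 in each of those PBS libraries. METH 3, PBS 1 and PBS 3 held 9, 10 and 9 of the rare known miRNAs, and METH 1, METH 2 and PBS 2 held 16, 15 and 13. Their sums were 100.2, 110 and 48.9 TPM in METH 3, PBS 1 and PBS 3, against 106, 55.8 and 34.7 TPM in METH 1, METH 2 and PBS 2, so these libraries overlapped. The difference from the rare predicted miRNAs was not tested, and METH 3, PBS 1 and PBS 3 are also the shallowest libraries. The 77 predicted miRNAs with 80 or more reads took 280315, 233203 and 222762 TPM in METH 3, PBS 1 and PBS 3 and 44648 to 81716 TPM in the other 5, the same division as the rare ones.

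The threshold cut through a continuous range. Just under it lay novel_208, novel_159 and novel_469 with 78, 75 and 73 reads, and just over it novel_412, novel_545 and novel_536 with 83, 85 and 87. novel_159 had 3, 2, 4 and 48 reads in METH 1 to METH 4 and 3, 0, 0 and 15 in PBS 1 to PBS 4. novel_545 had 1, 6, 14 and 16 in the METH and 14, 3, 4 and 27 in the PBS libraries. In novel_545 METH 3 and PBS 1 held counts near those of METH 4, and in novel_159 they did not.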

How the data were processed

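Per the labels' protocols, small RNA libraries were made by adding adapters to both ends, reverse transcription, PCR and gel selection. The authors deposited a raw read count and a TPM value of each miRNA in every library, per the file headers. Deposited TPM equal the count over the library's listed reads on the usual scale (largest difference 4.51e-05). As to aligner, prediction tool, genome build and filters, nothing is given in the sources used here, and reads shared between near-identical miRNAs cannot be separated.

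Groups came from sample titles. Counts were tested with edgeR 4.0.16 in R 4.3.3 (TMM, no filter, quasi-likelihood F test with robust estimation, Benjamini-Hochberg over all 384 miRNAs, threshold 0.05), METH over PBS and libraries numbered 4 over those numbered 1 to 3, and checked on simulated counts. DESeq2 1.42.0, other scalings, filters and left-out libraries were alternatives. Expected numbers were computed in Python 3.11.15 from binomial and hypergeometric terms. Floors are 3 counts, and ratios have exact 95% intervals. Named miRNAs are those in the most shallow libraries (10), with the largest excess (6) or smallest share (6) there, with all of 5 or more reads in 1 library (up to 5), with the smallest p (5 per fit), next to the threshold (3 either side) and in all 8 libraries (up to 4). The members, lists and rules were chosen with earlier results of these data known.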

Additional observations from a re-analysis of the deposited data

Results flagged for a closer look

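In groups of 4 libraries, a value was singled out when its gap to the next one passed Dixon's 95% critical value as a share of the group's range. This was checked in 60 groups of values and singled out 29. Chance gives about 1 in 20, but that rate does not apply here, since many of these miRNAs were named because their reads lie in few libraries, and where the other 3 libraries are at 0 the gap is the whole range.

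For the rare predicted miRNAs as a whole, METH 4 with 107 detected stood apart from the other METH libraries and PBS 4 with 119 from the other PBS libraries. METH 3 stood apart with a summed 427 TPM and with 49 detected at equal depth.

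METH 3 stood apart from the other METH libraries for novel_475 (47.2 TPM), novel_349 (44.2), novel_391 (41.3), novel_622 (32.4), novel_565 (23.6) and novel_218 (11.8). PBS 1 stood apart from the other PBS libraries for novel_475 (43.7 TPM) and novel_485 (9.51), and PBS 3 for novel_391 (33.5).

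METH 4 stood apart for novel_227 (1.94 TPM), novel_564 (1.19), novel_550 (0.746), novel_501 (0.597), novel_576 (0.448), novel_276 (0.298), novel_488 (0.298) and novel_257 (0.149), where the other 3 METH libraries were at 0. PBS 4 stood apart for novel_469 (3.27 TPM), novel_618 (1.77), novel_454 (1.64), novel_576 (1.23), novel_488 (1.23), novel_276 (1.09) and novel_564 (0.954), where the other 3 PBS libraries were at 0. novel_205 was lowest in PBS 4 on the TPM scale (2.18), below the other 3 PBS libraries, although its count was highest there.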

How the results depend on the processing

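The number of the 148 called stayed at 0 for METH over PBS and for deep over shallow libraries in each alternative that could be fitted, scalings, DESeq2 and left-out libraries included. With filterByExpr none of the 148 was left in the METH over PBS fit, so it gave no value. For deep over shallow libraries DESeq2 gave no adjusted p to novel_218, novel_469, novel_628, novel_227 or novel_564, so it could not call these. Deviations of same-numbered METH and PBS libraries correlated at −0.20, 0.43, 0.57 and 0.81 for numbers 1 to 4. Number 1 was not over 0.1, and METH 1 and METH 3 correlated best with PBS 2 and PBS 1, so the numbers were not taken to pair the samples. With the replicate block 0 of the 148 were called, and the 9 at an unadjusted p under 0.05 became 0 (10 became 5 over all rows). The 43 rows confined to METH 4 and PBS 4 ranged from 31 to 50 and the 51 recurring rows from 38 to 51 when 1 library was left out. Recurring rows numbered 23 with 2 reads as detection and 11 without METH 3, PBS 1 and PBS 3. In the latter a row must be in each of the 3 shallow libraries that remain, so fewer rows can meet it. The median percent of reads in METH 4 and PBS 4, 76.9%, ranged from 50% to 83.3% with 1 library left out and was 93.3% without METH 3, PBS 1 and PBS 3. The mean of 26.8 rows expected in METH 4 and PBS 4 at the shallowest total was 21.7 with known-name totals, 3.46 at 10 times fewer reads, 18.3 and 37.2 with thresholds of 40 and 160, and, in alternatives chosen after seeing the data, 41.4 with totals without miR-21-5p and 43.0 with TMM-scaled totals. The last means are not at the depth of the 26.8, since each total keeps another share of the reads of METH 4 and PBS 4. On TMM-scaled totals the shallowest library was METH 1 and not METH 3. The low counts limit what any row can show: 0 reads permit 3.85 to 8.84 TPM in the shallow libraries.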
